A study of Mus musculus with 16 samples.

Results

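Mouse embryonic stem (ES) cells grown for 7 days on PA6 stromal cells with BMP4 were compared with PA6 cells grown alone with the same factor, to learn which transcripts distinguish the mixed culture from its stromal layer. The comparison rested on 5 of the 16 arrays of the series, 2 of co-cultures and 3 of PA6 mono-cultures, with RNA from 1 culture on each Illumina MouseWG-6 v2.0 BeadChip array. A probe was included when its detection p-value, which gives the fraction of negative controls at least as bright, was under 0.05 on every array of the co-cultures or on every array of the mono-cultures. This held for 19520 of 45281 probes (43.1%), and 13911 genes of the 14829 that were detected in any group of the series were represented by such a probe.

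Both groups received recombinant BMP4 at 10 ng/ml by the labels, although the study's methods name a smaller dose, and one label gives the exposure as 3 days and another as 7 days. The ES cells carried an EGFP knock-in at the tau locus (Mapt, a neuronal microtubule protein) and had been kept on embryonic fibroblast feeders before the experiment. PA6 is a single stromal line of mouse bone marrow, and both kinds of culture were held in serum-free medium. The labels call the replicates biological and give 1 well of each kind per replicate, and p-values measure the spread between these arrays. The other groups used for comparison were cultures without added factor (-GFs, 2 co-culture and 3 PA6 arrays) and with FGF2 at 20 ng/ml (3 and 3 arrays).

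BMP4 is a secreted ligand of the TGF-β superfamily that binds paired serine/threonine kinase receptors and acts through SMAD1, SMAD5 and SMAD4 on targets such as the ID genes. In differentiating ES cells it is known to turn ectoderm away from neural fates toward surface ectoderm, the precursor of epidermis, and to promote mesoderm and its endothelial and blood derivatives. PA6 cells are known for inducing neurons from ES cells, for supporting blood progenitors and for forming adipocytes.

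In the co-cultures 6141 of the 13911 genes (44.1%) differed from PA6 cells alone. Of these, 3246 (23.3%) were higher and 2895 (20.8%) were lower in co-culture. A gene was counted as different when its Benjamini-Hochberg adjusted p (limma) was under 0.1 and its log2 difference exceeded 1 in size, the thresholds used by the study. A further 3490 genes passed the adjusted p with a smaller difference, and 9317 had an unadjusted p under 0.05. The values of the 2 groups did not overlap for 6098 of the 6141 genes. These genes were selected for a large difference, so the separation largely follows from the selection. The share over all 13911 genes was not counted. The 5 arrays detected 37.3 to 45.8% of the probes, and arrays of a group correlated at 0.976 to 0.984 across genes, and the co-culture arrays correlated with the PA6 arrays at 0.732 to 0.778. The median log2 difference over all 13911 genes was 0.036 and became 0.169 when the arrays were scaled to a common median, so values below are relative to a centre that moves by that much.

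The genes higher in co-culture often lay under the detection level of the arrays in PA6 cells. Among the 3246 higher genes the probe used was not above background on any PA6 array for 1483 (45.7%), and no probe of the gene was for 1387 (42.7%). Among the 2895 lower genes the probe used was not above background on either co-culture array for 270 (9.33%), and no probe of the gene was for 258 (8.91%). Where the probe used was not above background only a lower bound on the size is given, written as at least so many fold and reckoned from the dimmest probes still above background. For SOX11, MDK, ESRRB, SFN, NKD1, ROBO4, BIRC5, CCNB1 and PDGFC another probe was above background in PA6 cells, and the bound given below is that of the probe used. When detection on every array of both groups was required, 10162 genes remained and 3673 were called, of which 37.1% rather than 52.9% were higher. A gene undetected in one group was included through the other group alone. List counts and medians below therefore favour the group in which such genes were detected. In RNA from a mixed culture a lower level may come from a smaller share of a cell type in the RNA. That share also falls when other cells add RNA while cells of the type stay as many. Less of the transcript per cell is another source, and these cannot be told apart.

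First among the 12 largest rises was SLC2A3, a glucose transporter, with normalised log2 intensities of 14.72 and 14.28 in co-culture and 5.82, 6.17 and 5.72 in PA6 cells alone. The co-cultures exceeded the PA6 cultures at least 201-fold, adjusted p = 1.3e-10. UPP1, which encodes uridine phosphorylase, reached 14.63 and 13.59 in co-culture and BEX4 reached 14.07 and 14.00, and neither was above background in PA6 cells (at least 154-fold and at least 146-fold higher). The transcription factor SOX11 of immature neurons and embryonic tissue stood at 13.89 and 14.19 in co-culture and 5.53, 5.38 and 5.93 in PA6 cells alone (at least 146-fold, adjusted p = 2.44e-12). NDN (necdin, an imprinted neuronal growth suppressor), CDKN1C (the imprinted CDK inhibitor p57), IGFBP5 (an IGF-binding protein), MDK (the heparin-binding growth factor midkine), CRABP1 (a retinoic acid binding protein) and the ES cell gene FBXO15 rose by at least 171-fold, at least 154-fold, at least 163-fold, at least 181-fold, at least 91.4-fold and at least 138-fold. FXYD6, a regulator of the sodium pump, was detected on 1 PA6 array and differed by 7.93 ± 0.44, adjusted p = 5.68e-09 (SE here and below), and the ES cell gene DPPA5, described with its group, completes the set. All 12 genes of the largest rises were also called higher in cultures without factor and with FGF2.

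The deepest fall was that of SCARA5, a ferritin receptor of stromal cells. Its log2 intensities were 8.04 and 9.16 in co-culture and 14.13, 14.53 and 14.28 in PA6 cells alone, a difference of −5.71 ± 0.37, adjusted p = 2.38e-08. AIM1 (now Crybg1) was detected on every PA6 array at 11.20, 11.49 and 11.23 and on neither co-culture array (lower by at least 31.1-fold, adjusted p = 5.48e-12). The potassium channel subunit KCNAB1 differed by −5.43 ± 0.34, the matrix protein genes TNXB and ABI3BP by −4.82 ± 0.26 and −4.73 ± 0.36, and the angiotensin precursor AGT by −5.28 ± 0.44. TNXB and AGT, and also S3-12 and CCL9 below, were above background on only 1 of the 2 co-culture arrays. S3-12 (now Plin4), a lipid droplet coat protein, was at 5.73 and 8.71 in co-culture and 13.51, 12.02 and 12.52 in PA6 cells alone. The chemokine CCL9 was at 5.92 and 8.62 in co-culture and 13.41, 12.30 and 12.18 in PA6 cells alone. The secreted WFDC3 was lower by at least 17.2-fold, and the corepressor TLE2, the ectonucleotidase ENTPD2 and the unnamed model LOC100039175 differed by −4.80 ± 0.29, −4.68 ± 0.33 and −4.90 ± 0.29. All 12 genes of the largest falls were also called lower in cultures without factor and with FGF2. For S3-12 and CCL9 both co-culture values lay below every PA6 value, yet the co-culture values were themselves far apart.

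**Figure D1:**
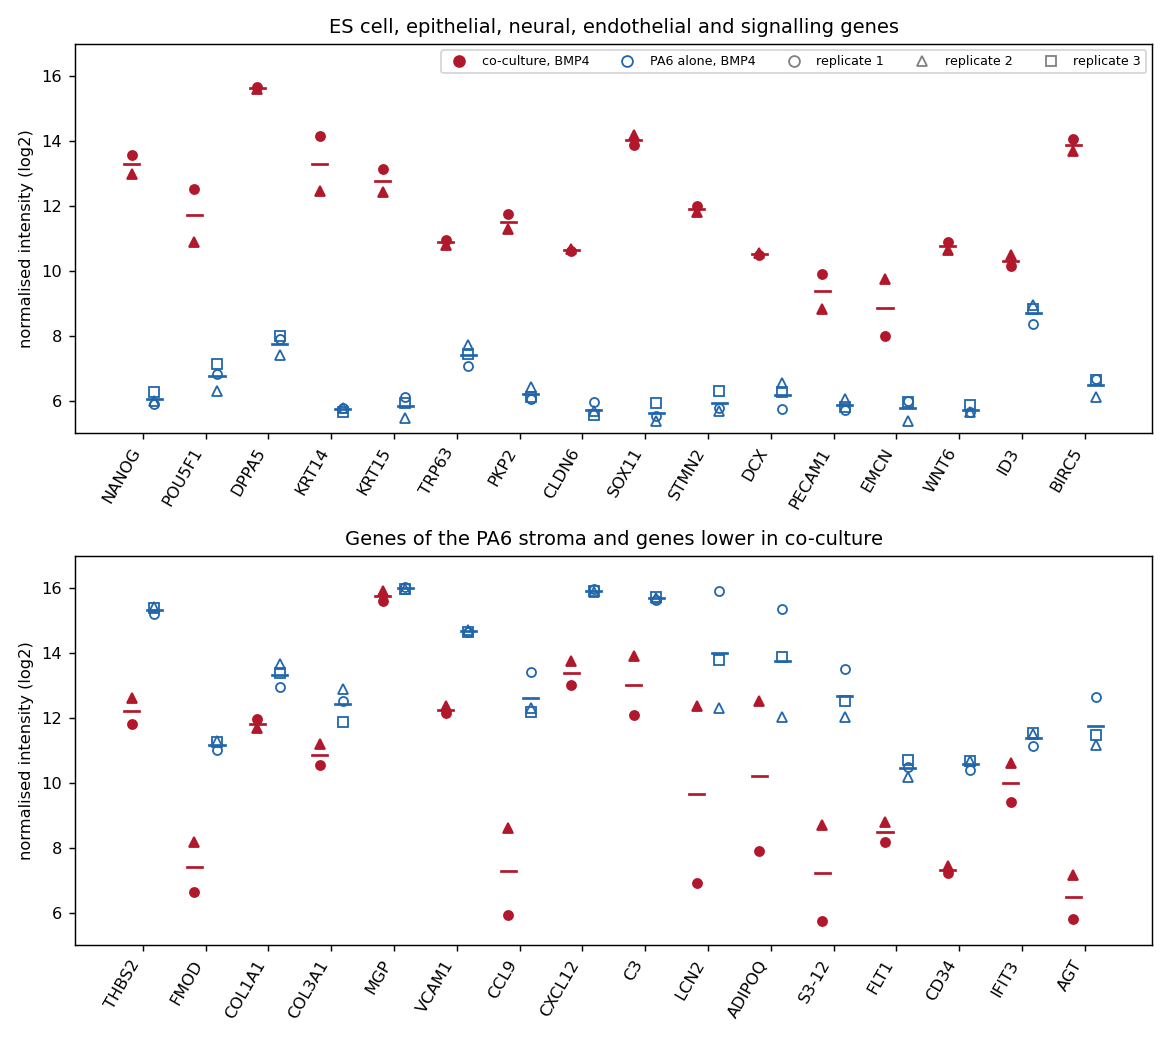
Normalised log2 intensity (y axis) of 32 genes on the 2 co-culture arrays (filled red) and the 3 PA6 arrays (open blue), all with BMP4, with replicates by symbol and group means as lines. In the upper panel the groups are apart for each gene, and in the lower panel LCN2 and ADIPOQ overlap between groups and MGP lies near the top of the scale in both.

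Gene lists were then followed by role. Pluripotency genes were higher in the co-cultures after 7 days, 22 of 25 measured genes with none lower and a median log2 difference of 4.01. Of the 22 higher genes 13 were undetected in PA6 cells, and the median ranged from 0.29 to 4.62 over the alternative settings. DPPA5, a small RNA-binding protein of ES cells, was at 15.69 and 15.62 in co-culture and 7.90, 7.39 and 7.98 in PA6 cells alone. DPPA4 was at 13.09 and 12.44 and not above background in PA6 cells (at least 60.2-fold, adjusted p = 1.16e-11), and the core factor NANOG was at 13.58 and 12.99 (at least 86.7-fold, adjusted p = 9.15e-09). The nuclear receptor ESRRB (at least 38-fold) and the zinc finger factor SALL4 (at least 38-fold) were likewise higher. POU5F1 (OCT4) was at 12.53 and 10.90 in co-culture and 6.81, 6.31 and 7.13 in PA6 cells alone, with 1 of 3 PA6 arrays above the detection threshold, a difference of 4.97 ± 0.42, adjusted p = 3.33e-07. SOX2, which is shared with neural progenitors, differed by 3.90 ± 0.35. KLF4 was at 9.68 and 8.60 in co-culture and 8.94, 9.51 and 9.97 in PA6 cells alone and did not pass the test (−0.33 ± 0.52, adjusted p = 0.6), with groups that overlap.

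Within the co-cultures the pluripotency genes were lower in replicate 2 than in replicate 1 for 23 of the 25 measured genes, by a median of 0.78 on the log2 scale. The gap exceeded 1 for 7 of them, including the NODAL co-receptor TDGF1 (10.31 and 8.30 in replicates 1 and 2) and UTF1 (9.46 and 8.21), and for none in the other direction. Replicate 2 also correlated more closely with the PA6 arrays (0.773 to 0.778) than replicate 1 did (0.732 to 0.735). The part of this difference between replicates in the calls was not tested beyond leaving out each array, which gave 5821 calls without replicate 1 and 6316 without replicate 2.

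Surface ectoderm and stratified epithelium genes were higher in the BMP4 co-cultures, 14 of 15 measured genes with 1 (GRHL1) not called. In the other media 4 of the 15 were higher and 1 lower without factor, and 7 were higher with FGF2. The difference between media itself passed the test for 6 of the 15 against no factor and for 5 against FGF2. The basal keratin KRT14 was at 14.15 and 12.47 in co-culture and 5.77, 5.76 and 5.65 in PA6 cells alone (at least 88.2-fold, adjusted p = 3.85e-07). KRT15, another keratin of basal keratinocytes, was at 13.13 and 12.42 in co-culture and 6.11, 5.47 and 5.93 in PA6 cells alone (at least 60.8-fold, adjusted p = 1.67e-08). TRP63 (p63), the master transcription factor of stratified epithelia, was above background in PA6 cells too, at 7.06, 7.70 and 7.43 against 10.95 and 10.81 in co-culture (3.48 ± 0.31, adjusted p = 5.22e-07). Without factor it was the member called lower in co-culture (−1.65, adjusted p = 0.000353), which enters its difference between media (5.14 ± 0.44, adjusted p = 3.84e-05). The AP-2 factors TCFAP2C and TCFAP2B (now Tfap2c and Tfap2b) rose by at least 41.2-fold and at least 39.5-fold, and stratifin (SFN) by at least 3.66-fold. KRT5, the usual partner of KRT14, was only weakly detected, at 7.13 and 6.36 in co-culture and 5.70, 5.84 and 5.45 in PA6 cells alone. It was not above background in PA6 cells and no bound on its fold can be given. The fitted log2 difference, 1.08 ± 0.23, adjusted p = 0.00114, came to 0.70 without co-culture replicate 1 and to 0.97 without PA6 replicate 3, below the limit of 1. GATA3 differed by 1.68 ± 0.56, adjusted p = 0.0183 and was no longer called without co-culture replicate 2, where its adjusted p lay just over the threshold. The median log2 difference of the list was 2.86, or 1.90 with undetected genes at their bounds.

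Epithelial adhesion and simple keratin genes moved the same way, with 21 of 25 measured genes higher and none lower (median 2.64, or 2.01 at the bounds). The splicing regulator RBM35A (now Esrp1) was at 11.41 and 11.39 in co-culture (at least 23.5-fold, adjusted p = 1.41e-06), the desmosomal plakophilin PKP2 at 11.74 and 11.28 (at least 25.3-fold), and the simple keratins KRT8 and KRT18 rose by at least 24.4-fold and at least 12.3-fold. E-cadherin (CDH1) was at 11.20 and 10.39 in co-culture and 7.14, 6.69 and 7.62 in PA6 cells alone (3.65 ± 0.54, adjusted p = 6e-05). COL17A1, the hemidesmosomal collagen of basal keratinocytes, was at 9.31 and 8.96 (at least 4.87-fold, adjusted p = 1.61e-07), and desmoplakin (DSP) at 8.72 and 8.57 (at least 3.48-fold, adjusted p = 4.03e-10). EpCAM, listed under its older name TACSTD1, was not detected on every array of either group.

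Whether the co-culture difference itself changed with BMP4 was tested as a difference of differences in the fit of all 16 arrays. Against cultures without factor it differed for 566 genes (4.07%), 385 toward co-culture and 181 away from it, and 2104 had an unadjusted p under 0.05. Against cultures with FGF2 it differed for 321 genes (2.31%), 191 and 130 in the same order, with 1950 at an unadjusted p under 0.05. Both were called for 115 genes. Median scaling moved the share toward co-culture from 68.0% to 86.2% of 536 genes in the first test and from 59.5% to 83.2% of 155 genes in the second. The counts also changed when single arrays were left out. Against no factor, 366 were called without co-culture BMP4 replicate 1. Against FGF2, 121 were called without co-culture BMP4 replicate 2, 207 without PA6 BMP4 replicate 1, 179 without co-culture FGF2 replicate 2, and 200, 212 and 186 without PA6 FGF2 replicates 1, 2 and 3.

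The largest positive differences of differences were those of KRT14 and KRT15, the DKK receptor KREMEN2, the ligand WNT6, TRP63 and the chemokine CXCL14 against no factor, and of the connexins GJB6 and GJB2 with KRT15, KRT14, WNT6 and KREMEN2 against FGF2. For KRT14 the fitted co-culture difference was 0.20 without factor and 0.95 with FGF2, against 7.58 ± 0.65 with BMP4 (7.38 ± 0.92, adjusted p = 0.000631 against no factor, and 6.63 ± 0.87, adjusted p = 0.00205 against FGF2). For GJB2, connexin 26 of epithelial gap junctions, the co-culture values with BMP4 were 12.60 and 12.73 (at least 56.3-fold, adjusted p = 4.42e-09) and the differences were 1.82 without factor and 0.50 with FGF2. GJB6 (connexin 30) was at 11.97 and 11.95 with BMP4 (at least 34.6-fold, adjusted p = 4.41e-06), and its differences were 1.34 without factor and −1.76 with FGF2. In FGF2 it was called lower in co-culture (adjusted p = 0.0192), with PA6 arrays at 7.30, 9.73 and 6.20 that lay apart, and this enters its difference against FGF2 (7.79 ± 0.90, adjusted p = 0.000901). CXCL14, a chemokine of epithelia and skin, was at 11.15 and 11.46 in co-culture and 6.30, 6.25 and 6.30 in PA6 cells alone (at least 21.9-fold, adjusted p = 4.12e-05). The differences between media of KRT14, KRT15, KREMEN2, WNT6, TRP63, CXCL14, GJB2 and GJB6 given here remained called in each fit that left out 1 array. WNT6 was above background on none of the 11 arrays of the other media, and KRT14 on 2 of them, both FGF2 co-cultures. Sizes that involve undetected genes depend on the background level of the arrays and are not bounds.

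**Figure D2:**
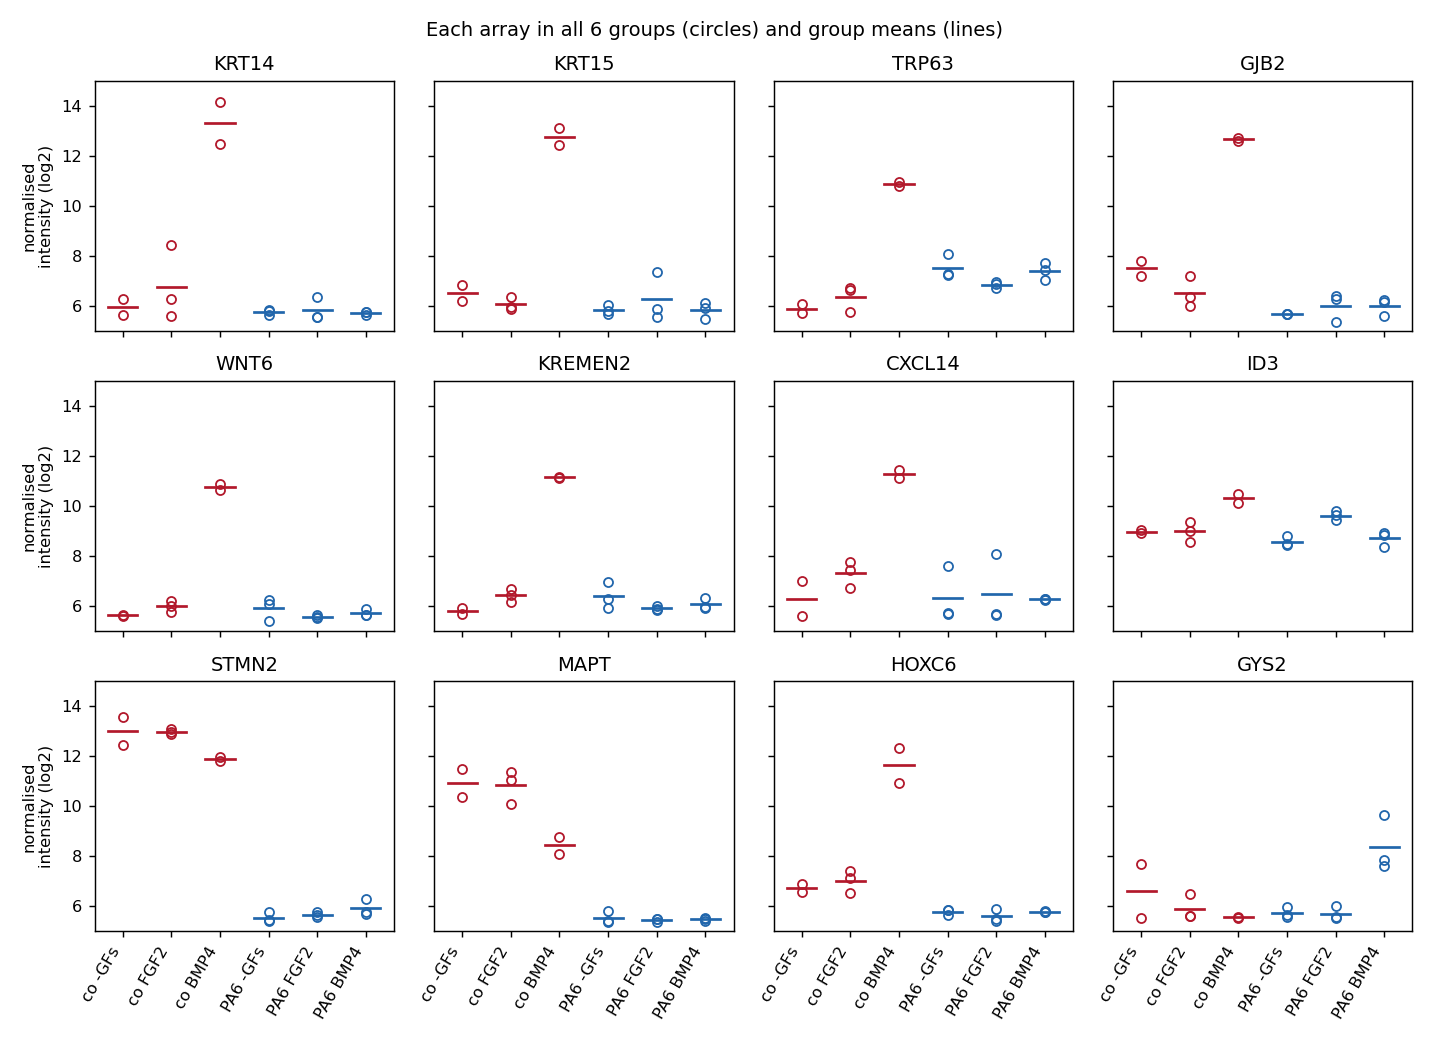
Normalised log2 intensity of 12 genes on each array (circles) with group means (lines) in co-cultures (red) and PA6 cultures (blue) without factor (-GFs), with FGF2 or with BMP4. KRT14, KRT15, GJB2, WNT6, KREMEN2, CXCL14 and HOXC6 lie above 10 on both BMP4 co-culture arrays and below 9 on every other array, while MAPT is lowest among co-cultures with BMP4.

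WNT ligands are secreted lipid-modified proteins that bind frizzled and LRP receptors, and the canonical branch stabilises β-catenin. Of 11 measured ligands 8 were higher in the BMP4 co-cultures and 2 were lower, with a median of 3.16, or 2.26 at the bounds. Of the 8 higher ligands 7 were undetected in PA6 cells and so were included through the co-culture arrays alone. With detection required in both groups the median of the list was −1.19. WNT6 was at 10.90 and 10.63 in co-culture and 5.65, 5.65 and 5.88 in PA6 cells alone (at least 15.1-fold, adjusted p = 5.64e-10). Its co-culture difference was −0.28 without factor and 0.44 with FGF2, and the difference of differences was 5.32 ± 0.31, adjusted p = 2.13e-06 against no factor and 4.60 ± 0.30, adjusted p = 1.03e-05 against FGF2. WNT4 was at 9.96 and 9.98 (at least 8.71-fold, adjusted p = 1.66e-08) and WNT10A at 9.29 and 8.71 (at least 4.44-fold, adjusted p = 3.15e-06), and both also differed from both other media. WNT7B (at least 10.4-fold) and WNT7A (at least 5.36-fold) were higher without a called difference between media. WNT3A, a ligand of the primitive streak, was at 9.58 and 10.34 in co-culture and 5.38, 5.52 and 5.42 in PA6 cells alone (at least 8.62-fold, adjusted p = 9.61e-07). The noncanonical WNT5A was at 10.12 and 9.76 in co-culture and 10.43, 10.93 and 10.18 in PA6 cells alone (−0.57 ± 0.39, adjusted p = 0.223, with another probe of opposite sign) and WNT5B was lower in co-culture (−1.80 ± 0.45, adjusted p = 0.00319).

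Of 15 measured receptors 4 were higher and 8 lower (median −1.18). FZD10 was at 11.41 and 12.05 in co-culture and 5.44, 5.37 and 5.60 in PA6 cells alone (at least 29.4-fold, adjusted p = 6.38e-11), and FZD6 differed by 2.07 ± 0.41. FZD8 (−2.56 ± 0.40), FZD7 (−1.49 ± 0.18) and the co-receptor LRP6 (−1.72 ± 0.32) were lower in co-culture. Among antagonists 6 of 9 were higher and 2 lower. KREMEN2, which binds DKK proteins and removes LRP receptors from the surface, was at 11.13 and 11.19 in co-culture and 5.94, 6.31 and 5.96 in PA6 cells alone (at least 19.8-fold, adjusted p = 2.05e-09). SOSTDC1, an inhibitor of both BMP and WNT, was at 11.36 and 10.73 in co-culture and 5.92, 6.20 and 6.75 in PA6 cells alone (at least 18.3-fold, adjusted p = 1.53e-06), SFRP2 differed by 3.58 ± 0.30, and SFRP1, abundant in PA6 cells at 15.60, 15.43 and 15.30, was lower (−2.10 ± 0.24). Of 10 measured targets 7 were higher and TCF7L2 was lower. The feedback inhibitor AXIN2 was at 10.90 and 11.31 in co-culture and 7.57, 7.08 and 6.78 in PA6 cells alone (3.96 ± 0.28, adjusted p = 6.96e-08), and its co-culture difference was 3.67 without factor and 4.01 with FGF2. NKD2 and NKD1, which act on Dishevelled, rose by at least 4.98-fold and at least 2.75-fold.

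The bases before the transcription start are shown for WNT6, KREMEN2, KRT14 and CXCL14, which are 4 of the 6 genes whose difference with BMP4 exceeded that without factor by the most, and for ID3, a known BMP target. The sequences are those of RefSeq on GRCm38.p6, on the gene's strand, 250 bases long and ending at the base before the start. Capitals mark matches on either strand to TATAAA (the TATA box), CCAAT (the CCAAT box), GGGCGG (the GC box), CACGTG (an E-box), ATGCAAAT (the octamer bound by OCT proteins), GGCGCC (an element bound by SMAD proteins) or CAGACA (the SMAD box).
Wnt6 (chr1:74771642-74771891, plus strand): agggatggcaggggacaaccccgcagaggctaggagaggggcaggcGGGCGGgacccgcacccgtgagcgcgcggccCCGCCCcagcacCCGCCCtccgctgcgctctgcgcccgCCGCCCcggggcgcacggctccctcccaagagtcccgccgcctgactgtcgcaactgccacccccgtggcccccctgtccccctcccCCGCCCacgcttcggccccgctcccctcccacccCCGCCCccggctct
Kremen2 (chr17:23745830-23746079, minus strand): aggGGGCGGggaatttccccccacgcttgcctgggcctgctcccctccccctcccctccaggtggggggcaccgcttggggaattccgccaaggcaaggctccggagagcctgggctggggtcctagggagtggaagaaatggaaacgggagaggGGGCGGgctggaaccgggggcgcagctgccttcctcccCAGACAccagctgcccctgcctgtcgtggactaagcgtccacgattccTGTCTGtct
Krt14 (chr11:100206031-100206280, minus strand): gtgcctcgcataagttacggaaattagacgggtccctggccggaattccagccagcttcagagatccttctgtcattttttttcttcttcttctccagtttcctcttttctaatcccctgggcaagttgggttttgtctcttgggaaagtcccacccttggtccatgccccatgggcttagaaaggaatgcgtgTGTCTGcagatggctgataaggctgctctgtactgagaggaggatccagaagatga
Cxcl14 (chr13:56296552-56296801, minus strand): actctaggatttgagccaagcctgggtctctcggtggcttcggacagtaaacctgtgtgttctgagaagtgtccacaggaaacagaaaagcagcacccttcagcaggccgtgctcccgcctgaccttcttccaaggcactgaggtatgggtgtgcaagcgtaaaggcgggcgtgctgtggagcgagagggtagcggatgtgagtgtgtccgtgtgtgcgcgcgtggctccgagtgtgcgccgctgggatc
Id3 (chr4:136143572-136143821, plus strand): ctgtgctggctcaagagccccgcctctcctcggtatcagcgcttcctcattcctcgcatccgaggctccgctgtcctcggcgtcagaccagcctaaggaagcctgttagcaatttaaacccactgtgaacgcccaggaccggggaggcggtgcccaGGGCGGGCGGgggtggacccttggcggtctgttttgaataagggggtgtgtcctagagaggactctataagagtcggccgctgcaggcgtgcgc
The Wnt6 stretch was 79.6% G and C and held 6 matches to GGGCGG, the core of GC boxes, and Krt14 was 49.6% G and C with 1 match to CAGACA. Kremen2 held 2 matches to GGGCGG and 2 to CAGACA, Id3 held 2 overlapping matches to GGGCGG, and Cxcl14 held none of the 7 motifs.

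Of all 32851 promoters in the table, counted with the 50 bases after the start, 35.7% held GGGCGG, 13.6% held TATAAA and 37.4% held CCAAT. The share was 21.0% for CAGACA, 11.9% for GGCGCC, 7.15% for CACGTG and 1.74% for ATGCAAAT. Of the 12 genes with the largest rises 7 had promoters in the table, 9 in all, and 7 of those 9 held GGGCGG and none TATAAA. Of the 12 with the largest falls 9 had promoters, 13 in all, of which 4 held GGGCGG and 3 TATAAA. These shares are a description of few promoters, and a match is no proof of binding.

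Components of the BMP pathway itself were called in both directions, beside 23.3% higher and 20.8% lower among all genes. The receptors and SMADs were near those shares, with 20% higher and 20% lower. Among 5 measured ligands BMP7 was higher in co-culture, at 9.71 and 9.29 in co-culture and 5.46, 5.73 and 5.42 in PA6 cells alone (at least 6.27-fold, adjusted p = 5.06e-09), as was GDF10 (at least 2.63-fold, adjusted p = 3.96e-05), and BMP1, a metalloprotease in spite of its name, was lower (−1.91 ± 0.27). The BMP4 transcript was at 11.10 and 10.38 in co-culture and 11.69, 11.76 and 11.55 in PA6 cells alone, and its difference of −0.92 ± 0.33, adjusted p = 0.027 was below the limit of 1, although it came to −1.28 without co-culture replicate 1. Without factor the same difference was −2.87, and the difference between media was called (1.94 ± 0.47, adjusted p = 0.0412), though not without co-culture -GFs replicate 1 (adjusted p = 0.167) or co-culture BMP4 replicate 1 (0.179). Of 10 receptors and SMADs 2 were higher, ACVR2B (2.54 ± 0.25, adjusted p = 1.49e-06) and BMPR1B (2.21 ± 0.72, adjusted p = 0.0164), and 2 lower, ACVR1 (−1.42 ± 0.19, adjusted p = 2.12e-05) and the endothelial receptor ACVRL1, which was not above background on either co-culture array (lower by at least 4.56-fold, adjusted p = 5.72e-05). SMAD1 was not called (0.36 ± 0.19, adjusted p = 0.124).

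Among known BMP targets 5 of 10 were higher and 3 lower, against 23.3% and 20.8% of all genes. The inhibitors of differentiation ID1 (1.98 ± 0.58, adjusted p = 0.00915), ID2 (1.63 ± 0.33, adjusted p = 0.000737) and ID3 (1.60 ± 0.24, adjusted p = 6.16e-05) were higher in co-culture, and ID4 was lower (−1.88 ± 0.34, adjusted p = 0.000316). ID3 was at 10.14 and 10.48 in co-culture and 8.35, 8.94 and 8.84 in PA6 cells alone, and it was the ID gene whose difference also changed against both other media (1.20 ± 0.34, adjusted p = 0.0852 against no factor, and 2.24 ± 0.32, adjusted p = 0.00427 against FGF2). The call against FGF2 held without any single array, and the call against no factor was lost in 9 of 10 such fits (adjusted p up to 0.231), all but that without PA6 BMP4 replicate 2. The feedback inhibitor SMAD6 (−2.43 ± 0.23) and the haematopoietic factor GATA2 (−3.08 ± 0.31) were lower. MSX1 was at 8.55 and 10.47 in co-culture and 9.91, 9.81 and 10.11 in PA6 cells alone, with co-culture values on both sides of the PA6 values. It differed by −0.43 over all arrays, by 0.53 without co-culture replicate 1 and by −1.39 without co-culture replicate 2. Of 10 antagonists 6 were lower, led by BMPER (−2.97 ± 0.31), and SOSTDC1 and noggin (NOG, at 6.88 and 6.58 in co-culture and 5.27, 5.49 and 5.54 in PA6 cells alone) were higher, with no bound on the fold of NOG (adjusted p = 0.000596).

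Neural genes were higher in the BMP4 co-cultures than in PA6 cells, 16 of 19 measured progenitor genes (median 3.37, or 2.92 at the bounds) and 21 of 22 neuronal genes (median 3.71, or 2.54 at the bounds). Of these higher genes 13 of the progenitor list and 16 of the neuronal list were undetected in PA6 cells. Over the alternative settings the medians ranged from 0.075 to 4.43 and from 0.90 to 3.86. The cerebellar factor ZIC1 was at 11.46 and 11.86 (at least 28.1-fold), HES5, a Notch target of neural progenitors, at 11.12 and 11.39 (at least 21.2-fold), and nestin (NES) at 10.75 and 10.97 (at least 16.1-fold). EN1 was the exception among progenitor genes, at 9.49 and 10.15 in co-culture and 12.46, 12.68 and 12.65 in PA6 cells alone (−2.77 ± 0.18, adjusted p = 3.21e-08). Among neuronal genes STMN2, a microtubule regulator of growing axons, was at 11.99 and 11.83 in co-culture and 5.78, 5.69 and 6.30 in PA6 cells alone (at least 33.4-fold, adjusted p = 8.7e-10), MTAP2 (MAP2) rose by at least 34.3-fold and DCX (doublecortin) by at least 12.7-fold. The general neuronal tubulin TUBB3 was not detected on every array of either group.

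For neurons the co-culture difference was smaller with BMP4 than in the other media for part of the list. Against no factor the difference was called lower for 8 of the 22 genes and higher for none, and against FGF2 for 4 and none. STMN2, DCX, MAPT and the synaptotagmin SYT1 were called in both. MAPT was at 8.78 and 8.11 in the BMP4 co-cultures, and its difference was 2.95 ± 0.36 with BMP4, 5.38 without factor and 5.38 with FGF2 (−2.43 ± 0.51, adjusted p = 0.0209 against no factor). For DCX the difference of differences was −1.84 ± 0.41, adjusted p = 0.028 against no factor and −1.88 ± 0.39, adjusted p = 0.0334 against FGF2. The vesicular GABA transporter SLC32A1 went from a difference of 5.40 without factor to 2.62 ± 0.30 with BMP4 (−2.77 ± 0.42, adjusted p = 0.00298). MTAP2 did not pass the test between media (−0.87 ± 0.43, adjusted p = 0.353). The difference against no factor remained called without any single array for MAPT and SLC32A1. It was lost for DCX without co-culture BMP4 replicate 1 (adjusted p = 0.103), for SYT1 without replicate 2 of the BMP4 or of the -GFs co-cultures, and for STMN2 in 6 of 10 fits (co-culture -GFs replicate 2, both BMP4 co-cultures, PA6 -GFs replicates 1 and 2 and PA6 BMP4 replicate 3). Against FGF2 it was lost for DCX and MAPT without co-culture BMP4 replicate 2 (adjusted p = 0.118 and 0.156), for SYT1 in 8 of 11 fits, all but those without a PA6 BMP4 array, and for STMN2 in all 11.

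Among 19 measured HOX genes, which set position along the body axis, 8 were higher and 3 lower (median 0.91). HOXC6 was at 10.95 and 12.33 in co-culture and 5.77, 5.78 and 5.82 in PA6 cells alone (at least 27.7-fold, adjusted p = 7.93e-09) and HOXC9 at 9.45 and 11.63 in co-culture and 5.53, 5.53 and 5.87 in PA6 cells alone (at least 12.9-fold, adjusted p = 3.76e-07). Their differences between media were called against no factor (4.92 ± 0.47, adjusted p = 0.000117 for HOXC6, and 4.79 ± 0.59, adjusted p = 0.000594 for HOXC9) and against FGF2. HOXB7 was at 10.42 and 12.33 and HOXB5 at 9.75 and 11.78, both undetected in PA6 cells (at least 23-fold and at least 15.1-fold). HOXA5 was lower (−1.65 ± 0.32, adjusted p = 0.000477, or −1.04 without co-culture replicate 1), as was HOXD9 (−2.05 ± 0.30), while HOXD8 (−1.55 ± 0.35, adjusted p = 0.00159) came to −0.94 without that replicate. Of the 19 genes 10 were more than 1 log2 unit higher in co-culture replicate 2 than in replicate 1, and none was higher by that much in replicate 1.

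**Figure D3:**
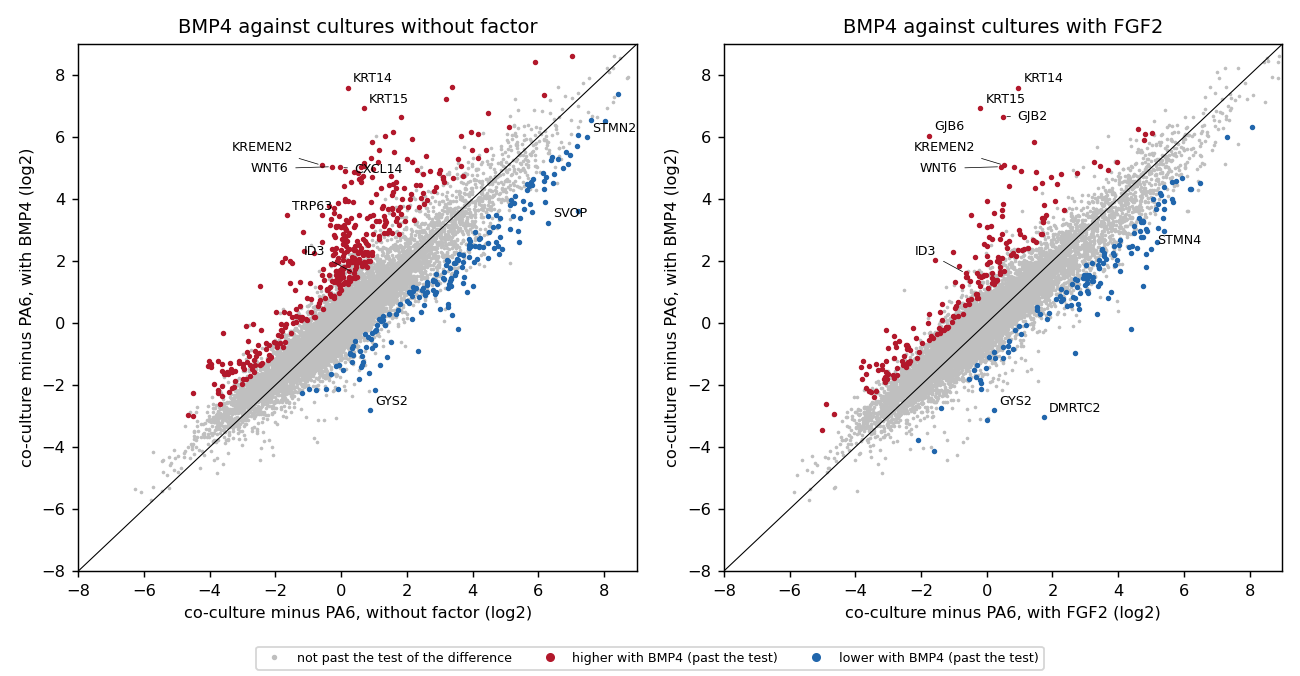
Log2 difference between co-culture and PA6 cells with BMP4 (y axis) against the same difference without factor (left, x axis) or with FGF2 (right, x axis) for 13911 genes, with the line of equal values. Red and blue mark genes whose difference was higher (385 and 191) or lower (181 and 130) with BMP4 by the test of the difference.

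Endothelial genes were mixed, 11 of 18 measured genes higher and 5 lower (61.1% and 27.8%, against 23.3% and 20.8% of all genes). The median was 1.74 and became 0.69 at the bounds. The junctional adhesion molecule PECAM1 was at 9.90 and 8.83 in co-culture and 5.71, 6.06 and 5.80 in PA6 cells alone (at least 5.73-fold, adjusted p = 7.04e-07), the sialomucin EMCN at 7.99 and 9.74 in co-culture and 5.99, 5.37 and 5.96 in PA6 cells alone (at least 4.04-fold, adjusted p = 0.000138), and the secreted EGFL7 at 11.97 and 11.66 in co-culture and 8.75, 7.96 and 8.94 in PA6 cells alone (3.26 ± 0.31, adjusted p = 1.03e-06). ETSRP71 (now Etv2), the pioneer factor of endothelium and blood, was at 8.05 and 8.19 (at least 2.41-fold, adjusted p = 8.18e-07), and the angiopoietin receptor TEK at 8.28 and 8.22 (at least 2.64-fold, adjusted p = 0.0162). PECAM1, EMCN and TEK differed more from PA6 cells with BMP4 than without factor (1.93 ± 0.45, adjusted p = 0.036 for PECAM1, 2.71 ± 0.72, adjusted p = 0.0631 for EMCN and 3.41 ± 0.88, adjusted p = 0.0565 for TEK), and none of the 18 differed between BMP4 and FGF2. These calls rested on single arrays: that of PECAM1 was lost without co-culture -GFs replicate 1 or co-culture BMP4 replicate 1 (adjusted p = 0.152 and 0.155), that of TEK in 5 of 10 fits, each without 1 of the 4 co-culture arrays or PA6 BMP4 replicate 1, and that of EMCN in 7 of 10, all but those without co-culture BMP4 replicate 1 and PA6 BMP4 replicates 1 and 3. The tight junction gene CLDN5 was at 7.07 and 9.39 in co-culture and 6.18, 6.09 and 6.36 in PA6 cells alone (at least 2.6-fold, adjusted p = 0.0342), with the co-culture arrays apart. Its fitted difference of 2.02 ± 0.76 came to 0.85 (adjusted p = 0.419) without co-culture replicate 2 and to 3.18 without replicate 1. ROBO4 (at least 1.51-fold, adjusted p = 0.000997) had a fitted difference of 2.03 ± 0.43, which came to 1.19 without co-culture replicate 2.

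All 5 lower endothelial genes were above background on every PA6 array. CD34, an antigen of endothelium and of stromal and adipose progenitors, was at 7.21 and 7.43 in co-culture and 10.38, 10.69 and 10.68 in PA6 cells alone (−3.26 ± 0.15, adjusted p = 9.45e-10). RAMP2 (−2.86 ± 0.29), the VEGF receptor FLT1 (8.18 and 8.81 in co-culture and 10.48, 10.19 and 10.69 in PA6 cells alone, −1.96 ± 0.34, adjusted p = 0.000231) and endoglin ENG (−1.72 ± 0.40, adjusted p = 0.00193) were also lower. Several defining genes gave no value, since CDH5 (VE-cadherin), KDR (FLK1), TIE1 and ICAM2 were not detected on every array of either group. Of 27 blood and macrophage genes 9 were measured, with 4 higher and 4 lower, and PTPRC (CD45), TYROBP and CSF1R were not detected on every array of either group. LAPTM5, a lysosomal protein of blood cells, was at 10.92 and 8.88 in co-culture and 5.46, 5.66 and 5.74 in PA6 cells alone (at least 8.29-fold, adjusted p = 2.12e-06) and the blood and endothelial cofactor LMO2 at 9.23 and 10.08 (at least 6.98-fold, adjusted p = 7.71e-08). LYZ2 (−1.77 ± 0.55, adjusted p = 0.0127) was not called without co-culture replicate 1 (adjusted p = 0.140).

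Genes of the primitive streak and early mesoderm gave 10 higher and 4 lower of 19 (median 1.63, or 0.70 at the bounds). The streak factor T (brachyury) was at 9.66 and 7.16 in co-culture and 5.56, 5.54 and 5.56 in PA6 cells alone (at least 2.96-fold, adjusted p = 0.000198), with a fitted difference of 2.86 that came to 1.61 without co-culture replicate 1. LHX1 (at least 9.94-fold, adjusted p = 5.42e-07) and the cardiac and motor neuron factor ISL1 (at least 6.08-fold, adjusted p = 3.19e-07) were higher, and the stromal genes FOXF1A (−3.53 ± 0.22) and PDGFRA (−2.89 ± 0.25) were lower. Of 10 endoderm genes 5 were higher, among them the trypsin inhibitor SPINK3 (10.76 and 11.28 in co-culture and 5.79, 6.04 and 5.61 in PA6 cells alone, at least 18-fold, adjusted p = 7.15e-08) and SOX17 (7.85 and 7.78 in co-culture and 5.90, 5.48 and 5.58 in PA6 cells alone, at least 1.96-fold, adjusted p = 1.28e-07). SOX17, a factor of endoderm and of arterial endothelium, differed from both other media (2.11 ± 0.23, adjusted p = 0.00027 against no factor, and 1.29 ± 0.22, adjusted p = 0.0139 against FGF2), while AFP was not detected on every array of either group. GATA6 was lower (−2.78 ± 0.22). Of 20 trophoblast genes 7 were measured and 6 were higher, including the placental homeobox genes RHOX6 (8.36 and 10.56, at least 6.11-fold, adjusted p = 1.5e-05) and RHOX9 (10.45 and 11.90, at least 20.1-fold, adjusted p = 1.4e-05).

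Of 10 neural crest genes 4 were higher and 5 lower. The endothelin receptor EDNRB (at least 69.5-fold, adjusted p = 1.16e-11) and the receptor KIT (at least 16.3-fold, adjusted p = 6.74e-10) led the rises, and SOX10, a factor of migrating crest, was at 6.62 and 6.93 in co-culture and 6.06, 5.44 and 5.61 in PA6 cells alone with no bound on its fold (adjusted p = 0.0344). Its fitted difference of 1.07 ± 0.41 came to 0.92 without co-culture replicate 2 and to 0.94 without PA6 replicate 2, below the limit of 1. SNAI2, a factor of epithelial to mesenchymal transition, was at 10.48 and 10.77 in co-culture and 12.87, 13.13 and 12.60 in PA6 cells alone (−2.24 ± 0.16, adjusted p = 7.93e-08), a smaller fall than the −4.51 seen without factor (2.27 ± 0.23, adjusted p = 0.000164). TWIST1 was at 10.40 and 10.41 in co-culture and 10.72, 10.71 and 10.50 in PA6 cells alone (−0.24 ± 0.17, adjusted p = 0.25), against −1.82 without factor and −1.37 with FGF2 (1.58 ± 0.25, adjusted p = 0.00319 against no factor, and 1.13 ± 0.23, adjusted p = 0.0334 against FGF2, lost without co-culture BMP4 replicate 2 at an adjusted p of 0.127).

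Cell cycle genes were higher in co-culture for 29 of 34 measured genes and lower for none (median 4.29, or 3.66 at the bounds). The survivin gene BIRC5 was at 14.06 and 13.71 in co-culture and 6.67, 6.11 and 6.63 in PA6 cells alone (at least 131-fold, adjusted p = 2.35e-09), the cyclin CCNB1 at 13.54 and 13.49 (at least 102-fold, adjusted p = 9.34e-10), TOP2A, the topoisomerase of dividing cells, at 13.66 and 13.27 in co-culture and 5.38, 5.95 and 7.10 in PA6 cells alone (7.32 ± 0.38, adjusted p = 3.02e-09), and MKI67 (Ki-67) at 11.87 and 11.74 (at least 31-fold, adjusted p = 1.1e-10). The 5 genes not called included the inhibitors CDKN1A, CDKN2A and CDKN2B. Of 19 genes for DNA methylation and chromatin 15 were higher and none lower, among them the DNA methyltransferase DNMT3B at 12.65 and 12.10 in co-culture and 9.66, 9.47 and 9.50 in PA6 cells alone (2.83 ± 0.53, adjusted p = 0.000415). Of 15 imprinted genes 10 were higher and 2 lower. H19 was at 15.23 and 14.34 in co-culture and 10.88, 11.15 and 9.72 in PA6 cells alone (4.20 ± 0.60, adjusted p = 4.21e-05), while its neighbour IGF2 was abundant in both at 15.74 and 15.43 in co-culture and 15.04, 14.69 and 14.34 in PA6 cells alone (0.90 ± 0.33, adjusted p = 0.0307), below the limit of 1, which it passed without co-culture replicate 2 (1.06) or PA6 replicate 1 (1.08).

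The stromal genes were lower in the co-cultures. Of 31 measured collagen and matrix genes 22 were lower and none higher (median −1.71). The small proteoglycan FMOD was at 6.63 and 8.18 in co-culture and 11.01, 11.28 and 11.25 in PA6 cells alone (−3.78 ± 0.39, adjusted p = 2.2e-06), OGN differed by −3.39 ± 0.51, THBS2 (thrombospondin 2) was at 11.82 and 12.61 in co-culture and 15.20, 15.41 and 15.38 in PA6 cells alone (−3.12 ± 0.21, adjusted p = 4.69e-08), and fibronectin (FN1) was lower (−2.76 ± 0.27). The fibrillar collagens COL1A1 (11.96 and 11.68 in co-culture and 12.96, 13.65 and 13.38 in PA6 cells alone, −1.51 ± 0.48, adjusted p = 0.0148) and COL3A1 (−1.56 ± 0.30) were lower by less. Decorin (DCN) at 15.16 and 15.56 in co-culture and 15.77, 16.08 and 15.96 in PA6 cells alone and lumican (LUM) were not called (−0.58 ± 0.19, adjusted p = 0.0174 for DCN and 0.86 ± 0.36, adjusted p = 0.0524 for LUM), and LUM passed the limit without co-culture replicate 2 (1.16) or PA6 replicate 1 (1.04). MGP, at 15.60 and 15.92 in co-culture and 16.05, 15.99 and 15.98 in PA6 cells alone, lay at the top of the scale. Of the 149 genes above 15 on all 5 arrays none was called, and whether differences are compressed near the top of the scale was not tested.

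Of 12 matrix proteases and inhibitors 9 were lower and none higher, including MMP2 (13.48 and 13.84 in co-culture and 15.98, 16.03 and 15.92 in PA6 cells alone, −2.32 ± 0.17, adjusted p = 1.07e-07), MMP14 (−2.39 ± 0.18) and the procollagen protease ADAMTS2 (−3.17 ± 0.27). The stromal markers CXCL12, a chemokine that retains blood progenitors (13.03 and 13.76 in co-culture and 15.99, 15.89 and 15.91 in PA6 cells alone, −2.54 ± 0.23, adjusted p = 5.63e-07), and VCAM1 (12.15 and 12.36 in co-culture and 14.64, 14.71 and 14.65 in PA6 cells alone, −2.42 ± 0.19, adjusted p = 1.57e-07) were lower and still well detected in the co-cultures. Of 12 contractile genes 8 were lower, led by MYL9 (−2.40 ± 0.21), and desmin (DES) was higher (1.91 ± 0.35, adjusted p = 0.000323). ACTA2 was at 14.22 and 14.08 in co-culture and 14.65, 15.15 and 15.25 in PA6 cells alone and not called (−0.87 ± 0.50, adjusted p = 0.148). Among 7 bone and cartilage genes SPP1 (osteopontin, 2.37 ± 0.41, adjusted p = 0.000228) and AKP2 (now Alpl, alkaline phosphatase, which ES cells also express, 2.83 ± 0.38, adjusted p = 2.27e-05) were higher and 4 were lower.

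Adipocyte genes were lower for 15 of 22 measured genes (median −2.28), but their levels varied widely between arrays of one group. PPARG, the master regulator of adipocytes, was at 6.51 and 9.31 in co-culture and 12.63, 10.99 and 11.41 in PA6 cells alone (−3.76 ± 0.63, adjusted p = 0.000149, or −2.36 without co-culture replicate 1), and CEBPA at 6.76 and 6.75 in co-culture and 10.82, 9.51 and 9.61 in PA6 cells alone (−3.23 ± 0.31, adjusted p = 1.25e-06). The adipokine ADIPOQ was at 7.91 and 12.53 in co-culture and 15.38, 12.02 and 13.87 in PA6 cells alone, and adipsin (CFD) at 8.11 and 13.01 in co-culture and 15.92, 12.58 and 14.51 in PA6 cells alone. For both, co-culture replicate 2 exceeded PA6 replicate 2, so the groups overlap. ADIPOQ (−3.54 ± 1.59, adjusted p = 0.0693) was −5.85 without co-culture replicate 2. It was not called without co-culture replicate 1 (−1.22) or without PA6 replicate 1 (−2.73) or 3 (−3.48). CFD (−3.78 ± 1.62, adjusted p = 0.0571) was −6.22 without co-culture replicate 2. It was not called without co-culture replicate 1 (−1.33) or without PA6 replicate 1 (−2.98) or 3 (−3.69). CIDEC, of lipid droplet fusion, was at 6.24 and 10.87 in co-culture and 15.40, 10.96 and 12.60 in PA6 cells alone. Its difference (−4.43 ± 1.61, adjusted p = 0.0282) was −6.75 without co-culture replicate 2. It was not called without co-culture replicate 1 (−2.11) or without PA6 replicate 1 (−3.22). Lipoprotein lipase (LPL) was at 11.24 and 11.42 in co-culture and 13.05, 9.35 and 10.45 in PA6 cells alone and did not pass the test (0.38 ± 1.08, adjusted p = 0.777). FABP4 was not detected on every array of either group, and APOE was the gene of the list that was higher (11.22 and 10.43 in co-culture and 6.14, 5.78 and 6.21 in PA6 cells alone, at least 15.7-fold, adjusted p = 2.78e-07).

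PA6 replicate 1 was more than 1 log2 unit above the mean of the other 2 PA6 arrays for 16 of the 22 adipocyte genes and below it by that much for none, with a median gap of 2.06, against 378 and 214 of all 13911 genes. In the co-cultures 7 of the 22 were higher by more than 1 in replicate 2 and 1 in replicate 1. Also higher by more than 1 in replicate 2 were 9 of 15 complement and acute phase genes and 7 of 15 chemokine and cytokine genes, against 355 of all 13911 genes. Of those 355 genes 235 were lower in co-culture than in PA6 cells and 59 higher. Of the 284 genes higher by more than 1 in replicate 1, 166 were higher in co-culture and 15 lower. The part of these gaps in the results was not tested beyond leaving out arrays.

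**Figure D4:**
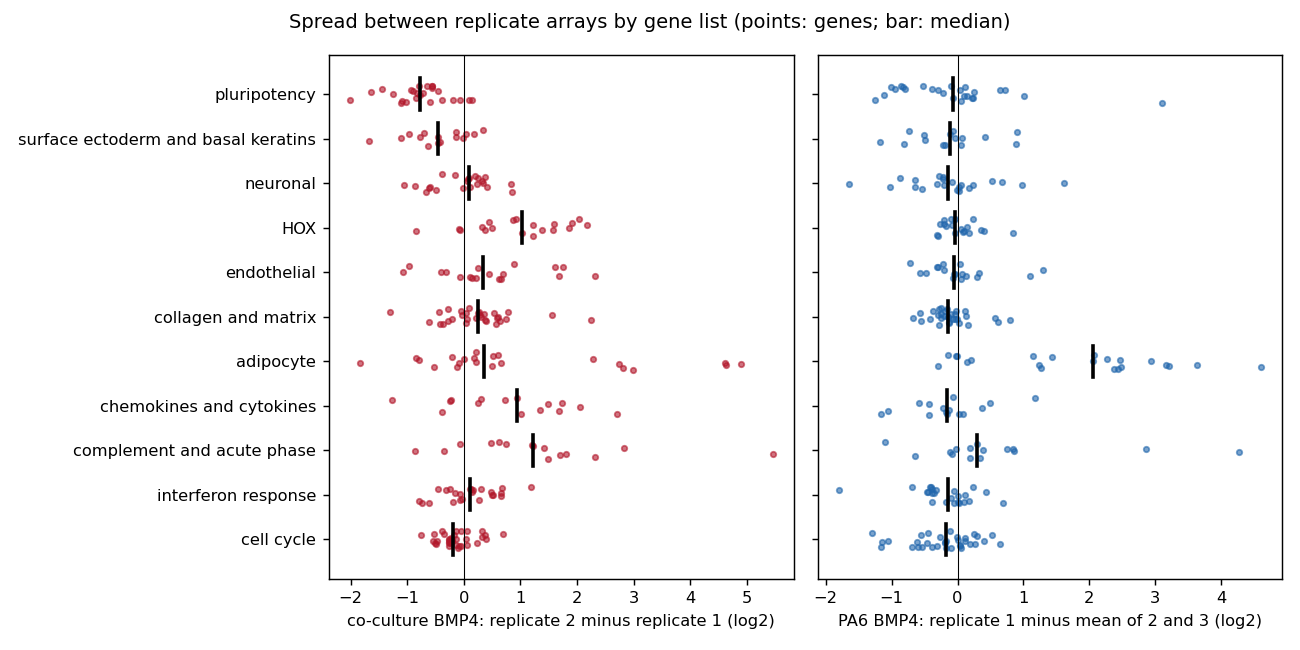
Log2 gaps between replicate arrays for the genes of 11 lists, with co-culture replicate 2 minus replicate 1 on the left, PA6 replicate 1 minus the mean of replicates 2 and 3 on the right, and black bars for list medians. The adipocyte median is at 2.06 on the right, and the HOX and complement medians are at 1.02 and 1.23 on the left.

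Complement and acute phase genes were lower for 13 of 15 measured genes and higher for 2 (median −2.51). The central component C3 was at 12.10 and 13.91 in co-culture and 15.63, 15.71 and 15.74 in PA6 cells alone (−2.69 ± 0.42, adjusted p = 7.98e-05, or −1.78 without co-culture replicate 1), C4B at 9.13 and 10.54 in co-culture and 14.08, 13.54 and 13.12 in PA6 cells alone (−3.74 ± 0.55, adjusted p = 4.85e-05) and haptoglobin (HP) at 9.68 and 12.50 in co-culture and 15.14, 14.26 and 14.30 in PA6 cells alone (−3.48 ± 0.59, adjusted p = 0.000185, or −2.07 without co-culture replicate 1). The siderophore binder LCN2 was at 6.92 and 12.37 in co-culture and 15.91, 12.30 and 13.79 in PA6 cells alone, again with co-culture replicate 2 above PA6 replicate 2. Its difference (−4.36 ± 1.27, adjusted p = 0.00876) was −1.63 (adjusted p = 0.231) without co-culture replicate 1 and −7.08 without replicate 2. Of 15 chemokine and cytokine genes 11 were lower, among them CCL7 (9.10 and 10.59 in co-culture and 13.93, 13.98 and 14.32 in PA6 cells alone, −4.23 ± 0.48, adjusted p = 5.46e-06), the macrophage factor CSF1 (−3.25 ± 0.36, adjusted p = 3.68e-06) and the interleukin 1 antagonist IL1RN (−4.43 ± 0.56, adjusted p = 1.27e-05). CXCL14 was the member that was higher.

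Interferon response genes were lower for 19 of 24 measured genes and higher for none (median −1.38). The class I light chain B2M was at 13.85 and 14.11 in co-culture and 15.74, 15.89 and 15.68 in PA6 cells alone (−1.79 ± 0.17, adjusted p = 1.03e-06), and IFI205 differed by −2.86 ± 0.62. For 4 genes of the list the fall was smaller with BMP4 than without factor. These were USP18, which removes ISG15 from proteins (−1.21 ± 0.24 with BMP4 and −3.75 without factor, 2.54 ± 0.33, adjusted p = 0.00105), IFIT3 (−1.39 ± 0.44 and −4.07, 2.67 ± 0.63, adjusted p = 0.0361), OASL2 (−1.56 ± 0.33 and −3.62, 2.06 ± 0.47, adjusted p = 0.0304) and GBP2 (−1.06 ± 0.27 and −2.58, 1.52 ± 0.38, adjusted p = 0.0495). Between media the call of USP18 held without any single array. Those of IFIT3 and OASL2 were lost without co-culture -GFs replicate 1 or co-culture BMP4 replicate 2 (adjusted p = 0.116 to 0.142), and that of GBP2 in 4 of 10 fits (co-culture -GFs and BMP4 replicates 1, PA6 -GFs replicate 2 and PA6 BMP4 replicate 1, adjusted p up to 0.177). Against PA6 cells with BMP4, IFIT3 came to −0.80 without co-culture replicate 1, and GBP2 to −0.91 without co-culture replicate 2 and −0.94 without PA6 replicate 2.

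Ligands that act on vessels were called in both directions. Of 17 measured ligands 6 were higher and 8 lower (35.3% and 47.1%), against 23.3% and 20.8% of all genes. VEGFC, a growth factor of lymphatic and venous endothelium, was at 10.37 and 10.26 in co-culture and 5.64, 5.80 and 5.81 in PA6 cells alone (at least 11-fold, adjusted p = 6.38e-11), with a larger difference than without factor (1.43 ± 0.22, adjusted p = 0.00319). PDGFC was at 10.10 and 9.73 in co-culture and 6.65, 6.63 and 6.28 in PA6 cells alone (at least 8.35-fold, adjusted p = 8.23e-07), though another probe for it had the opposite sign. HGF (7.64 and 9.11 in co-culture and 12.20, 12.06 and 11.91 in PA6 cells alone, −3.68 ± 0.37, adjusted p = 1.58e-06), FGF7 (−3.68 ± 0.31) and FIGF (now Vegfd, −2.94 ± 0.31) were lower, and VEGFA was at 11.52 and 11.15 in co-culture and 11.90, 11.70 and 12.04 in PA6 cells alone (−0.55 ± 0.22, adjusted p = 0.0406), below the limit of 1. ANGPT1 was lower (−1.52 ± 0.26, adjusted p = 0.000191), by less than with FGF2 (1.80 ± 0.35, adjusted p = 0.0272). In the TGF-β and Nodal list 4 of 15 genes were higher, including LEFTY1 (at least 27-fold, adjusted p = 2.47e-07), NODAL (at least 17-fold, adjusted p = 2.37e-08) and the matricellular CTGF (1.72 ± 0.26, adjusted p = 6.04e-05), and 6 lower, including TGFB1 (7.02 and 7.20 in co-culture and 9.68, 9.42 and 9.98 in PA6 cells alone, −2.58 ± 0.29, adjusted p = 5.23e-06), TGFBR2 (−2.18 ± 0.25) and TGFBR3.

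**Figure D5:**
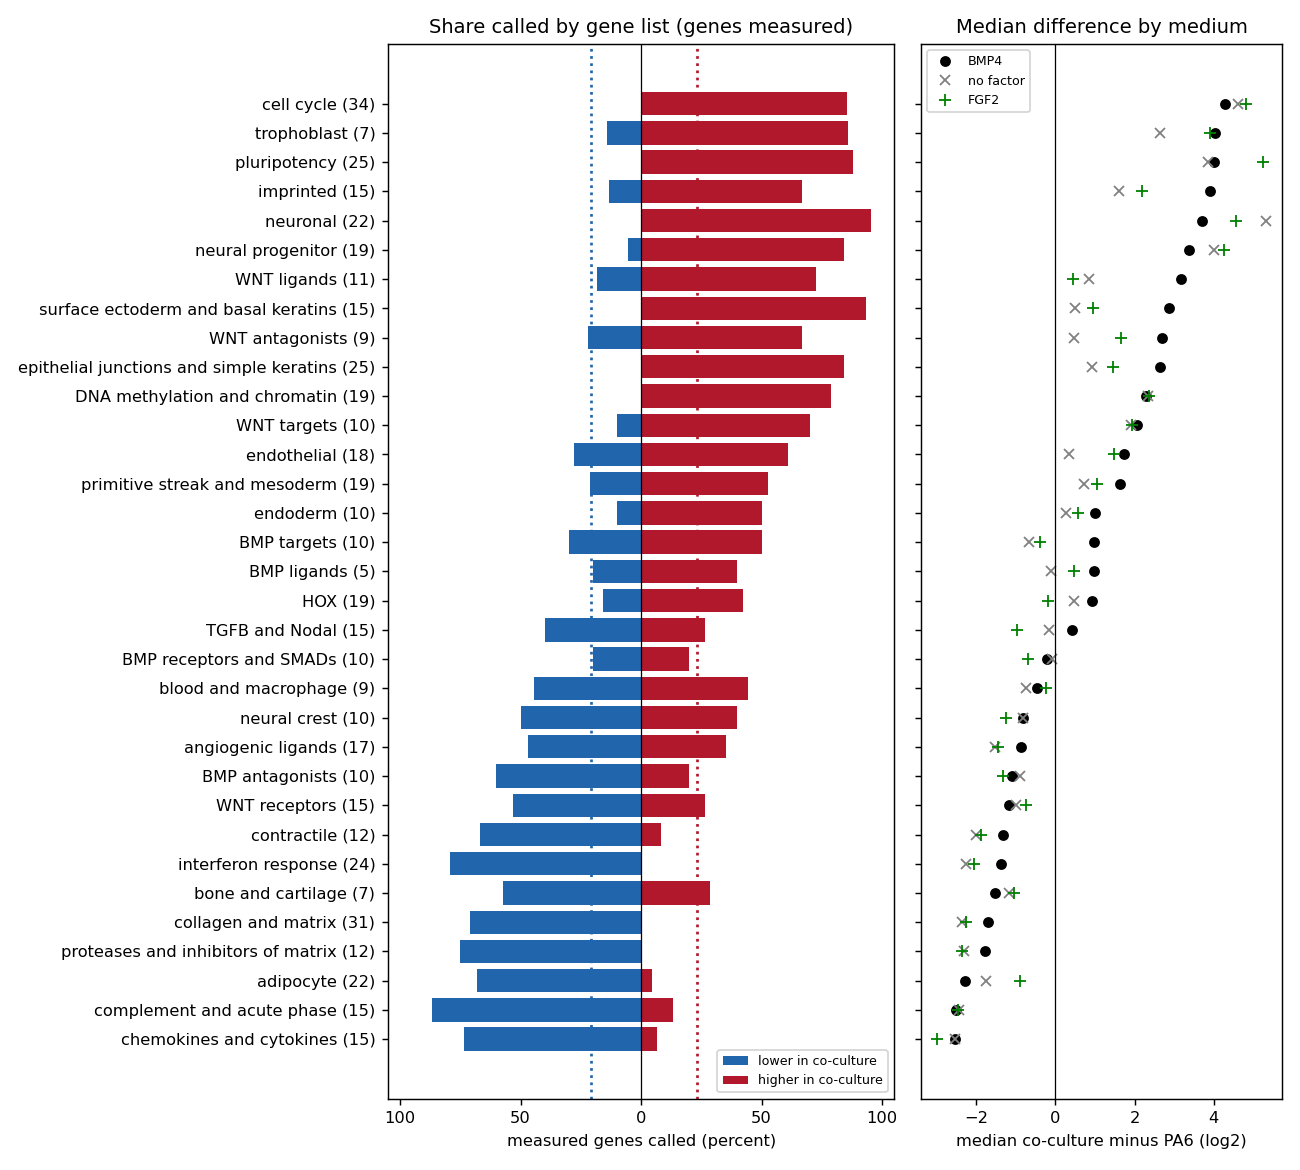
Left, percent of the measured genes of each list (number in brackets) that were higher (red, right) or lower (blue, left) in co-culture with BMP4, with dotted lines at 23.3% and 20.8%, the shares of all 13911 genes. Right, median log2 difference of each list with BMP4, without factor and with FGF2. With BMP4 the medians of the pluripotency, neural progenitor, neuronal, epithelial and cell cycle lists lie above 2 and those of the stromal lists below −1.

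Most of the difference was shared by the 3 media, which have no arrays in common but share the normalisation and the pooled spread. Of the 6141 genes 4990 (81.3%) were called in the same direction without factor and 5289 (86.1%) with FGF2, which was 81.3% of 6136 and 81.4% of 6498 calls in those media. In all 3 media 4578 were called alike, and 13 and 8 were called in opposite directions. Called with BMP4 alone were 429 genes, of which 43 also passed both tests between media, 40 of them higher in co-culture.

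The arrays of the deposited table stand in 3 runs of adjacent columns, each holding arrays of several groups. Within the 2 runs that hold a BMP4 co-culture array, 6135 of the 6141 genes differed in the same direction in both. The same arrays made the calls, so this count was nearly fixed by the selection and does not test the runs. At the detection threshold the 227 probes just inside had a worst detection p of 0.0459 to 0.0492 and a median log2 intensity of 6.47, and the 291 just outside 0.0502 to 0.0545 and 6.38. Other probes existed for 1702 of the called genes. All of them were called alike for 1226, and for 123 at least 1 had the opposite sign.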

How the data were processed

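RNA of ES cell and PA6 co-cultures and of PA6 mono-cultures had been hybridised to 16 Illumina arrays in 6 groups. The authors read the arrays with GenomeStudio (2011.01 by the submitters' processing notes) and deposited 1 table of non-normalised intensities and detection p-values per probe. Their own spline normalisation was not used here.

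The intensities of all 16 arrays were background-corrected and quantile-normalised with neqc (limma 3.58.1, R 4.3.3, offset 16), taken to log2, and fitted with lmFit and eBayes as 6 group means. Contrasts were co-culture minus PA6 with BMP4, and that difference minus the one without factor or with FGF2. Array number limits the precision. P-values were adjusted over 14829 genes, and a gene is a target name represented by its brightest probe. A call needed an adjusted p under 0.1 and a log2 difference over 1. Of the 13911 genes 11745 (84.4%) were matched to RefSeq names. Genes named first were the 12 largest calls each way without overlap between groups and the 6 largest each way between media, then members of 33 lists. The comparison, its members and the lists were chosen with earlier results of these data known. Lists are described by counts and medians without a test. The fits were tested on simulated data. Alternatives covered scaling, background, filters, thresholds, left-out arrays and blocks, and a fixed block for runs of adjacent columns was added after seeing the data. A few genes that enter these counts are not reported here by name.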

Additional observations from a re-analysis of the deposited data

Results flagged for a closer look

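Results are listed here when the co-culture difference with BMP4 was shown by a test of the difference to be another than in a second medium. Against no factor this held for 566 genes and against FGF2 for 321.

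Toward co-culture against no factor, the differences of differences on the log2 scale were 7.38 for KRT14, 6.26 for KRT15, 5.68 for KREMEN2, 5.32 for WNT6, 5.14 for TRP63, 5.04 for CXCL14, 4.92 for HOXC6 and 4.79 for HOXC9. They were 3.51 for WNT10A, 3.41 for TEK, 2.71 for EMCN, 2.67 for IFIT3, 2.66 for WNT4, 2.54 for USP18, 2.27 for SNAI2, 2.11 for SOX17 and 2.06 for OASL2. Smaller ones were 1.94 for BMP4, 1.93 for PECAM1, 1.58 for TWIST1, 1.52 for GBP2, 1.43 for VEGFC and 1.20 for ID3.

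Toward co-culture against FGF2 they were 7.79 for GJB6, 7.14 for KRT15, 6.63 for KRT14, 6.16 for GJB2, 4.60 for WNT6, 4.56 for KREMEN2, 4.43 for HOXC6 and 3.86 for HOXC9. WNT10A followed with 3.41, WNT4 with 2.87, ID3 with 2.24, ANGPT1 with 1.80, SOX17 with 1.29 and TWIST1 with 1.13.

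Away from co-culture against no factor they were −3.69 for GYS2, a liver glycogen synthase, −3.59 for PPP1R1A, a phosphatase inhibitor, −3.20 for 3321402G02RIK, −3.05 for SVOP, −2.80 for RCAN2, a calcineurin regulator, and −2.77 for SLC32A1. Neuronal genes followed with −2.43 for MAPT, −2.28 for SYT1, −1.84 for DCX and −1.50 for STMN2.

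Away from co-culture against FGF2 they were −4.77 for DMRTC2, −3.13 for LOC100048434, −3.04 for HOPX, −3.03 for GYS2, −2.76 for RCAN2 and −2.64 for STMN4. MAPT stood at −2.43, SYT1 at −1.94, DCX at −1.88 and STMN2 at −1.34. The values of GYS2 were 9.67, 7.62 and 7.88 on the PA6 arrays with BMP4, against means of 5.74 without factor and 5.70 with FGF2, and it was not above background in co-culture with BMP4 (lower by at least 4.12-fold, adjusted p = 0.00114). Leaving out single arrays ended the call of GYS2 in 2 of 10 fits against no factor (co-culture -GFs or BMP4 replicate 1) and in 10 of 11 against FGF2, all but that without PA6 BMP4 replicate 2, which held for DMRTC2 as well. It ended the call of 3321402G02RIK in 8 of 10 fits, all but those without co-culture -GFs replicate 2 or PA6 BMP4 replicate 3. That of LOC100048434 was lost in 7 of 11, all but those without co-culture FGF2 replicate 1 or 3, PA6 FGF2 replicate 3 or PA6 BMP4 replicate 3. The call of SVOP was lost without co-culture -GFs replicate 2 or co-culture BMP4 replicate 1 (adjusted p up to 0.153) and that of PPP1R1A without co-culture BMP4 replicate 1 (0.116). Those of HOPX (0.167) and STMN4 (0.200) were lost without co-culture BMP4 replicate 2.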

How the results depend on the processing

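The comparison with BMP4 gave 6141 calls and between 4757 (no background correction) and 6339 (no filter on dim probes) under most alternatives that kept the gene as unit. Exceptions were 9631 without a minimum fold and 3673 when detection on every array of both groups was required, where 174 and 127 calls remained against no factor and FGF2 and 2781 were shared by all media. The count against FGF2 came to 162 at an adjusted p under 0.05, to 155 under median scaling and to 188 without a filter. Arrays left out in turn were those of the groups compared, and for the calls in all media only those with BMP4. Leaving out 1 array gave 5821 to 6316 calls, 366 to 553 against no factor, 121 to 408 against FGF2 and 4381 to 4596 in all media.

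With the replicate number as a block the counts were 6188, 646, 401 and 4570. No pairing by number was assumed, since not every same-numbered pair of arrays deviated together. By number the BMP4 co-cultures correlated with PA6 cells in BMP4 at −0.0397 and −0.0567, with -GFs co-cultures at 0.114 and 0.114, and with FGF2 co-cultures at −0.0379 and −0.207. The 2 values against -GFs are not separate, since deviations in groups of 2 arrays mirror each other. With FGF2 co-cultures of the same run of adjacent columns the BMP4 co-cultures correlated at 0.207 and 0.173. Over all groups the median was 0.0849 for 35 pairs of the same run and −0.0415 for 71 pairs of other runs. PA6 arrays with BMP4 did correlate with same-numbered PA6 arrays, at 0.112, 0.151 and 0.207 for FGF2 and at 0.184, 0.155 and 0.0979 for -GFs, and these pairs also share a run of adjacent columns. Blocks for such runs gave 6159, 622 and 377 calls (random) and 6183, 593 and 396 (fixed, chosen after seeing the data).

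Of 233 genes followed 218 were called, and 200 of these remained so in every alternative run. Without background correction or with an offset of 50, or both, the calls of ANGPT1, APOA1, GATA3, GBP2, GSX1, KRT5, NOG, RCAN2 and SOX10 were lost. LUM (1.03) and IGF2 (1.07) became calls under median scaling, and BMP4 (−1.02) and ACTA2 (−1.17) with the fixed block. Of 57 called differences between media 31 remained so. Uncalled genes that turned sign were MSX1 (0.53 without co-culture replicate 1, −1.39 without replicate 2), KLF4 (−0.87 and 0.21) and LPL (1.43 without PA6 replicate 1, −0.42 without replicate 2). Median list differences that turned were those of blood genes (1.81 at a detection p under 0.01, and −0.96 to 0.014 without 1 array). With detection in both groups they came to −1.47 for trophoblast, −0.89 for endoderm, −0.68 for streak and mesoderm, −1.96 for endothelium, −1.42 for BMP ligands, −1.19 for WNT ligands, −1.23 for WNT antagonists, −0.82 for TGF-β and Nodal and −0.30 for imprinted genes, a filter that drops genes undetected in PA6 cells. The signal over background limits such genes to bounds.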

Other observations

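In all 40 genes were called higher in co-culture with BMP4 alone and passed both tests between media, among them KRT14, WNT6, CXCL14 and others described above. Of those not yet described, LYPD6B was at 9.29 and 9.09 in co-culture and 5.70, 5.71 and 5.84 in PA6 cells alone (at least 5.05-fold, adjusted p = 1.11e-07), the clathrin adaptor AP1M2 of polarised epithelia rose by at least 3.74-fold, adjusted p = 3.69e-06, and ADH6B by at least 3.54-fold, adjusted p = 4e-07. BNC1 (basonuclin), a zinc finger protein of basal keratinocytes, rose by at least 1.93-fold, adjusted p = 7.32e-06, and the integrin ITGB6 by at least 1.11-fold, adjusted p = 6.98e-06.

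Homeobox genes of this set were BARX2 (7.58 and 8.73 in co-culture and 5.43, 5.48 and 5.47 in PA6 cells alone, at least 2.47-fold, adjusted p = 1.03e-06), IRX6 (at least 2.5-fold, adjusted p = 1.57e-07), ALX4 (at least 1.58-fold, adjusted p = 1.08e-05) and IRX4 (at least 1.53-fold, adjusted p = 8.64e-06). The retinol transporter STRA6 rose by at least 1.7-fold, adjusted p = 6.27e-06. The 3 genes of the set that were lower in co-culture were C430014D17RIK (−1.53 ± 0.17, adjusted p = 5.06e-06), the flavin monooxygenase FMO1 (−2.12 ± 0.36, adjusted p = 0.00018) and GYS2. These genes were named after their values were seen.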
